A study of Sus scrofa with 6 samples.

Results

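The transforming growth factor beta (TGF-beta) ligands TGFB1, TGFB2 and TGFB3 were followed in pig aortic valve leaflets under hypertensive and normotensive cyclic pressure. The Affymetrix Porcine Genome Array held 8 probe sets whose platform annotation gave exactly 1 gene symbol and for which that symbol was TGFB1, TGFB2 or TGFB3, out of 23999 probe sets that were not controls. TGFB1 had 2 of them, TGFB2 had 4 and TGFB3 had 2, named here by ligand and a letter in order of mean log2 signal (TGFB2-a to TGFB2-d); the plots pair each name with its Affymetrix ID. The hypertensive group was 3 samples of leaflets held for 24 h under pressure cycling between 0 and 120 mmHg at 1 Hz. The normotensive group was 3 samples held for the same time and at the same rate between 0 and 80 mmHg. All leaflets came from adult female pigs, had their endothelium stripped with collagenase, and were kept overnight in serum-containing medium before the pressure was applied, so leaflets in culture wells, with serum also present during the exposure, stand in for the valve in both groups. The samples are labelled as biological replicates, with no word on shared or separate animals. The p-values below therefore measure only how these samples vary, and part of that spread may be technical.

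TGF-beta is secreted in a latent form, folded inside its own propeptide and tethered to the matrix by latent TGF-beta binding proteins, and it acts once integrins, thrombospondin or proteases release it. The active ligand joins the receptors TGFBR2 and TGFBR1, which phosphorylate SMAD2 and SMAD3; these enter the nucleus with SMAD4 and switch on matrix and contractile genes. In the aortic valve, TGF-beta is known for turning quiescent interstitial cells into myofibroblasts. Much of its control lies after transcription, which transcript arrays do not read.

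No TGF-beta ligand passed the genome-wide test. The bright TGFB3 probe set was at 1.44 times its normotensive signal under hypertensive pressure, while the dim TGFB3 probe set was at 0.790 times. All 4 TGFB2 probe sets were at 0.607 to 0.674 times, and the TGFB1 probe sets were at 0.721 and 0.882 times. Without hypertensive replicate 1, TGFB2-a to TGFB2-d were at 0.872, 0.854, 0.678 and 1.15 times. Adjusted p for the 8 probe sets lay between 0.347 and 0.785 (limma, Benjamini-Hochberg over all 14399 probe sets kept). Of the 8, 0 passed at an adjusted p of 0.05, against 0% of all probe sets kept; 0 were under 0.05 unadjusted, against 16.9%. In 0 of the 8 did the groups separate without overlap, against 22.5% of all probe sets kept. Mean log2 signal was lower at hypertensive pressure in 7 of the 8 and higher in 1, where 52.7% of all probe sets kept were lower and 47.3% higher, and the probe sets of 1 ligand share their gene. The median of the 8 log2 differences was -0.52, against -0.041 over all probe sets kept.

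Values are MAS5 signals, a linear measure of brightness with 1 value per probe set and array, and differences are on the log2 scale, hypertensive minus normotensive, with the standard error (SE) of the fit and 3 arrays per group. Signals of different probe sets depend on their probes, so the levels of the 3 ligands are not ranked. Probe sets were kept where mean log2 signal reached the 40th percentile, which corresponds to a signal of 48.5, called the filter level below. All 8 ligand probe sets were kept. The arrays had been scaled to one trimmed mean, and the hypertensive arrays differed among themselves. Across probe sets kept, the mean correlation with normotensive arrays was 0.817, 0.950 and 0.895 for hypertensive replicates 1, 2 and 3, against 0.958 to 0.971 among the normotensive arrays. Of 8 interstitial or fibroblast markers, 7 were kept by the filter, among them vimentin (VIM) between 18606 and 26412 and COL1A2 between 187 and 583 on the 6 arrays, while S100A4 lay below the filter level on 5 arrays. Of 13 endothelial markers, 5, among them VWF, KDR and TIE1, lay below the filter level on every array, while ERG lay between 899 and 1780. Of the 5 endothelial markers measured, 4 had lower means, ERG without overlap, and 1 was higher without overlap: SELP, at 368 to 2296 on hypertensive arrays, against 90.6 to 245 on normotensive arrays (6.79 times, limma adjusted p = 0.235). Among those too dim to be tested, CDH5 read 68.4 to 115 on hypertensive arrays, against 12.3 to 40.5 on normotensive arrays, and SELE read 29.3 to 443 on hypertensive arrays, against 1.11 to 4.50 on normotensive arrays, both again without overlap. The summed signal of all 13 was 2116 to 4467 on hypertensive arrays, against 2547 to 3110 on normotensive arrays, and the part of endothelial cells in the ligand values was not tested. The control gene GAPDH differed by 0.11 (SE 0.15) on the log2 scale and ACTB by 0.32 (SE 0.24).

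TGFB3 is the isoform best known for palate and lung development and is also made by adult fibroblasts. Its bright probe set, TGFB3-a, is matched to a RefSeq transcript of the gene by its accession. Its signal was 3867, 2839 and 2846 on hypertensive replicates 1, 2 and 3, against 1822, 2979 and 1947 on normotensive replicates 1, 2 and 3. All 3 hypertensive arrays lay above the normotensive mean, but the groups overlapped because normotensive replicate 2 was above hypertensive replicates 2 and 3. The mean signal was 3184 ± 591 under hypertensive and 2249 ± 635 under normotensive pressure (SD, n = 3 each). The log2 difference was 0.52 (SE 0.27), with a 95% interval from -0.10 to 1.14, which allows a signal of 0.934 to 2.21 times the normotensive level (limma adjusted p = 0.347). Without normotensive replicate 2 the log2 difference was 0.74, and it was 0.37 without hypertensive replicate 1. When arrays were weighted by their spread, TGFB3-a passed at 0.60 (limma adjusted p = 0.0342). That fit called 39.2% of all probe sets and gave hypertensive replicate 2 a weight of 0.195 and normotensive replicate 1 a weight of 6.96. In the same fit TGFB3-b went the other way, at -0.72 (limma adjusted p = 0.0594).

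The other TGFB3 probe set, TGFB3-b, carries an accession that matched no RefSeq transcript of the gene. Its signal was 84.0, 114 and 57.6 on the hypertensive arrays, against 104, 136 and 79.3 on the normotensive arrays. These values sit near the filter level and overlap between groups, with a log2 difference of -0.34 (SE 0.38, limma adjusted p = 0.634). On each array the bright probe set exceeded the dim one by 5.52, 4.63 and 5.63 on the log2 scale at hypertensive pressure, against 4.13, 4.46 and 4.62 at normotensive pressure. All 3 hypertensive gaps were wider than every normotensive gap, the closest pair narrowly, by 0.86 on average (exact permutation test, 2-sided, p = 0.1, the smallest that 3 arrays against 3 allow; 0.8 adjusted over 8 pairs of probe sets). Each probe set's 95% interval crossed 0. The interval of TGFB3-b, from -1.21 to 0.53, only just held the TGFB3-a value of 0.52. The interval of TGFB3-a, from -0.10 to 1.14, did not hold the TGFB3-b value of -0.34. Without hypertensive replicate 3 or normotensive replicate 2, TGFB3-b was at -0.084 or -0.15. Which part of the transcript each reads is not given in the sources used here.

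**Figure D1:**
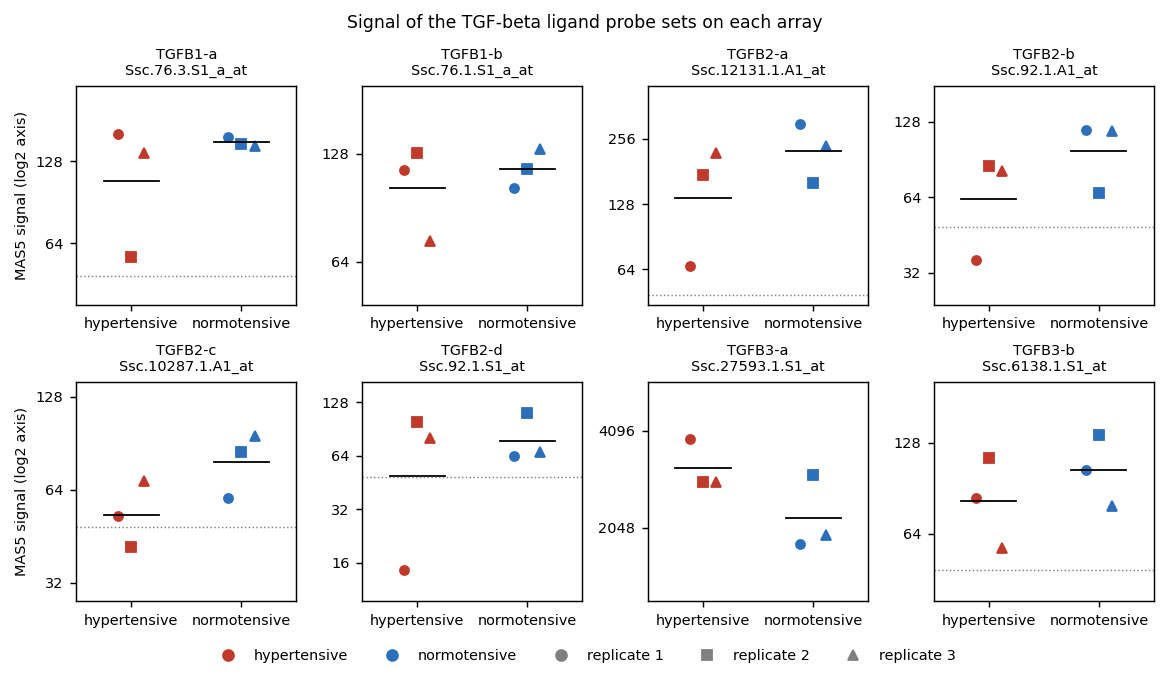
MAS5 signal (log2 axis, own range in each panel) of the 8 TGF-beta ligand probe sets on hypertensive arrays (red, left) and normotensive arrays (blue, right), with symbols for the replicate, black bars for geometric means and a dotted line at the filter level of 48.5 where it falls in range. The groups overlap in every panel, and hypertensive replicate 1 is lowest of its group in 3 of the 4 TGFB2 panels.

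TGFB2 is the isoform most closely tied to heart cushion and valve formation in the mouse embryo, and it depends on the co-receptor TGFBR3 for tight receptor binding. Its brightest probe set, TGFB2-a, read 66.1, 174 and 219 on hypertensive replicates 1, 2 and 3, against 299, 159 and 236 on the normotensive arrays. Hypertensive replicate 1 stood well below the other 5 arrays, while the other hypertensive arrays read within the span of the normotensive ones. The log2 difference was -0.72 (SE 0.49), with a 95% interval from -1.84 to 0.40 (limma adjusted p = 0.439). Without hypertensive replicate 1 it was -0.20.

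The probe set TGFB2-b gave nearly the same picture. It read 35.9, 85.5 and 81.2 on the hypertensive arrays, against 119, 66.8 and 117 on the normotensive arrays. Hypertensive replicate 1 was again lowest, and it was the only array under the filter level, with a log2 difference between groups of -0.63 (SE 0.45), or -0.23 without that array. The log2 ratio of TGFB2-a to this probe set stayed between 0.88 and 1.43 on the hypertensive arrays and between 1.01 and 1.34 on the normotensive arrays, the narrowest span among the TGFB2 pairs.

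The other 2 TGFB2 probe sets tracked less closely. TGFB2-c read 52.5, 41.8 and 68.1 on the hypertensive arrays, against 60.3, 84.9 and 95.3 on the normotensive arrays. Here hypertensive replicate 2 was lowest, and only hypertensive replicate 3 exceeded a normotensive array (log2 difference -0.57, SE 0.36, limma adjusted p = 0.415). With array weights this difference was -0.046. TGFB2-d read 14.6, 99.5 and 81.1 on the hypertensive arrays, against 63.7, 111 and 67.4 on the normotensive arrays. Its log2 difference of -0.67 (SE 0.71) rested on hypertensive replicate 1 and was 0.20 without it. None of the 6 TGFB2 pairs differed in its change by exact permutation test (2-sided, unadjusted p from 0.8 to 1). That test can miss large differences at 3 arrays against 3.

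TGFB1 is the isoform most studied in fibrosis and in calcific valve disease, and platelets store it. Both of its probe sets carry a RefSeq transcript accession. TGFB1-a read 162, 57.2 and 138 on the hypertensive arrays, against 158, 148 and 146 on the normotensive arrays. The 3 normotensive arrays lay close together (151 ± 6.18, SD, n = 3), hypertensive replicate 1 lay just above them, and hypertensive replicate 2 stood far below. The log2 difference of -0.47 (SE 0.42, limma adjusted p = 0.552) became -0.011 without hypertensive replicate 2.

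TGFB1-b read 115, 128 and 73.0 on the hypertensive arrays, against 103, 116 and 132 on the normotensive arrays. In this probe set hypertensive replicate 3, not replicate 2, was the low array, so the pair disagreed on which leaflet sample had less TGFB1 transcript. The log2 difference was -0.18 (SE 0.33), with a 95% interval from -0.94 to 0.58 (limma adjusted p = 0.785), and it was 0.065 without hypertensive replicate 3 and -0.089 without normotensive replicate 3. Of 4 platelet and blood markers measured, 2 were higher and 2 lower, and the summed signal of all 5 named was 1704 to 2813 on the hypertensive arrays, against 1790 to 1861 on the normotensive arrays. PPBP, a platelet chemokine, was at 0.72 (SE 0.70) and the platelet glycoprotein GP9 at -0.12 (SE 0.31) on the log2 scale, with overlapping groups. Hypertensive replicate 2 had the highest PPBP signal, 412, and the lowest TGFB1-a signal. On that array TGFB1-b, at 128, was the highest of its group, and the summed platelet and blood signal, at 1704, was the lowest of all arrays. Of that sum, 1041 came from the haemoglobin gene HBB, which was also at its lowest there. The part of platelets in the TGFB1 values was not tested.

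**Figure D2:**
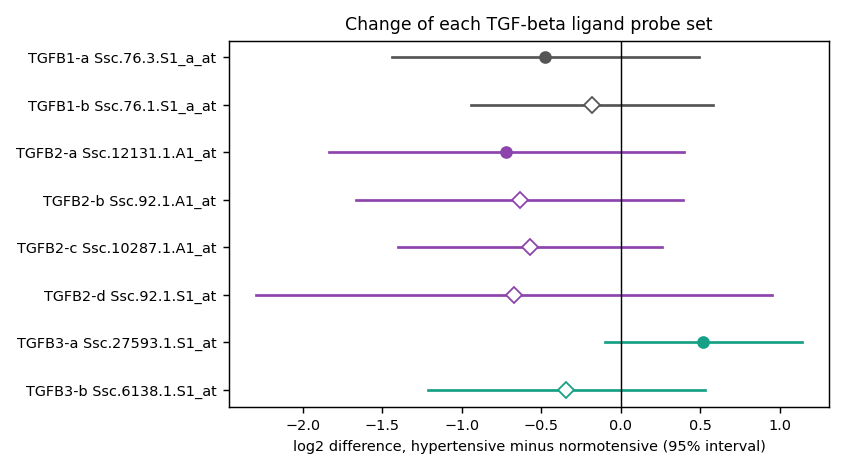
Log2 difference, hypertensive minus normotensive, of each TGF-beta ligand probe set with its 95% interval from limma (3 arrays per group); filled circles mark the brightest probe set of each ligand and open diamonds the others. Every interval crosses 0, and TGFB3-a of TGFB3 is the only probe set above 0, at 0.52.

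Interstitial and leukocyte marker genes are given beside TGFB2 because hypertensive replicate 1, lowest in TGFB2-a, TGFB2-b and TGFB2-d, was also lowest in their summed signals. Not every probe set or marker followed. TGFB2-c was lowest on hypertensive replicate 2, VIM on hypertensive replicate 3 and COL1A2 on normotensive replicate 3. Among measured leukocyte markers, CD163, AIF1, C1QA and TYROBP were lowest on hypertensive replicate 1. PTPRC was lowest on hypertensive replicate 3, and CD14 and CORO1A on normotensive replicate 3. CORO1A was highest on hypertensive replicate 1. Means of all 7 measured interstitial or fibroblast markers were lower in the hypertensive group (median log2 difference -0.34, 0 passed). The summed signal of all 8 named ran from 42337 to 60677 on the hypertensive arrays, against 63931 to 66235 on the normotensive arrays, and was lowest on hypertensive replicate 1. The 9 named leukocyte markers, of which 7 were measured and 4 were lower, summed to 941 to 3116 on the hypertensive arrays, against 2113 to 3987 on the normotensive arrays, and were also lowest on hypertensive replicate 1. The part of either in the TGFB2 values was not tested. In whole leaflets, fewer cells of a type and less RNA per cell cannot be told apart.

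The isoforms were compared through their ratio within each array, taken between the brightest probe sets. The log2 ratio of TGFB3 to TGFB1 was 4.58, 5.63 and 4.37 on hypertensive replicates 1, 2 and 3, against 3.53, 4.33 and 3.74 on the normotensive arrays. Every hypertensive ratio lay above every normotensive ratio, with a difference of 0.99, or 1.99 times (exact permutation test, 2-sided, p = 0.1, the smallest this design allows; 0.3 adjusted over 3 pairs of ligands). The gap between hypertensive replicate 3 and normotensive replicate 2 was small, and without hypertensive replicate 2, the array low in TGFB1-a, the difference was 0.61. With quantile normalization between arrays the difference was 0.89 and the exact p was 0.3. The other TGFB1 probe set was an alternative chosen after the values were seen. With it the difference was 0.70 and the ratios of the groups overlapped (exact permutation p = 0.2). Averaging the probe sets within each ligand gave a difference of 0.42 (exact permutation p = 0.3). The ratio was not tested with TGFB3-b alone. The log2 difference of TGFB3-b was -0.34, against -0.47 for TGFB1-a and -0.18 for TGFB1-b. The difference of 0.99 therefore belongs to TGFB3-a and TGFB1-a.

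TGFB3 to TGFB2 gave log2 ratios of 5.87, 4.03 and 3.70 on the hypertensive arrays, against 2.61, 4.23 and 3.04 on the normotensive arrays. The difference of 1.24 did not separate the groups (exact permutation p = 0.3, 0.45 adjusted) and was 0.57 without hypertensive replicate 1. TGFB2 to TGFB1 gave -1.29, 1.61 and 0.67 on the hypertensive arrays, against 0.93, 0.10 and 0.69 on the normotensive arrays. The hypertensive ratios spread on both sides of the normotensive ones, so the difference of -0.25 (exact permutation p = 0.8, also 0.8 adjusted) turned to 0.56 without hypertensive replicate 1.

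**Figure D3:**
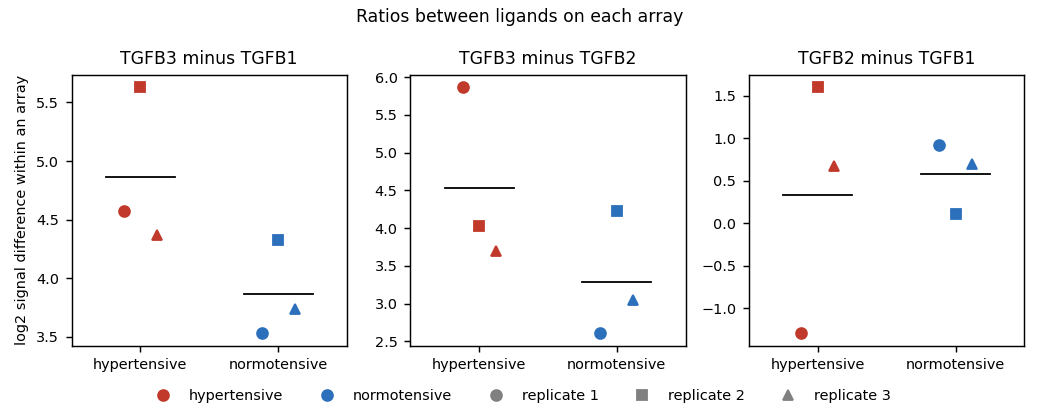
Log2 signal difference within each array between the brightest probe sets of a pair of ligands, on hypertensive arrays (red, left) and normotensive arrays (blue, right), with black bars for group means. The TGFB3 to TGFB1 ratios are 4.37 to 5.63 on hypertensive and 3.53 to 4.33 on normotensive arrays, while the other pairs overlap.

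Genes whose signal followed each ligand across the 6 arrays were ranked over 5270 other genes, each ligand taken by its brightest probe set. The measure was the root-mean-square distance between log2 deviations from the mean. Nearest to TGFB3 were the kinase gene STK17A, the ubiquitin ligase gene RNF40 and the leukocyte adhesion gene VCAM1, at 0.082, 0.089 and 0.107. VCAM1 read 24766, 16761 and 18732 on the hypertensive arrays, against 12182, 16419 and 13196 on the normotensive arrays. As in TGFB3-a, normotensive replicate 2 was the highest of its group and hypertensive replicate 1 the highest of all. Nearest to TGFB2 were the kinase gene NUAK1, HABP4 and the membrane skeleton gene EPB41, at 0.189, 0.209 and 0.214. NUAK1 read 264, 793 and 834 on the hypertensive arrays, against 943, 720 and 833 on the normotensive arrays, with the same low array. Nearest to TGFB1 were the secreted matrix protein gene CCDC80, TMEM213 and AFF3, at 0.186, 0.189 and 0.209. The median gene lay at 0.54 from TGFB3, 0.773 from TGFB2 and 0.676 from TGFB1. These distances describe 6 arrays and carry no test. They follow TGFB1-a, TGFB2-a and TGFB3-a only, and TGFB1-b was lowest on another array than TGFB1-a.

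The pathway around the ligands was read through 6 lists of genes, ordered by role. Of 147 genes listed, 64 had a named probe set and 55 were measured above the filter, by the brightest probe set of each. By limma 0 of the 55 passed, against 0% of all genes (adjusted p from 0.164 to 0.994), and 13 had an unadjusted p under 0.05, or 23.6%, against 17.0% of all 5271 genes. The groups did not overlap in 14, or 25.5%, against 21.9% of all genes. Mean signal was higher in 24 and lower in 31, with a median log2 difference of -0.025 against -0.068 over all genes. Without hypertensive replicate 2, which raised the calls to 24.3% of all probe sets, 11 of the 55 passed, 4 higher and 7 lower, in a fit that called 26.0% of all genes. With array weights 19 passed, in a fit that called 40.7%.

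Genes that hold or release latent TGF-beta mostly had higher mean signal at hypertensive pressure, and 0 passed. Of 14 measured, 10 were higher and 4 lower, with a median log2 difference of 0.27, while 45.0% of all genes were higher. The median was 0.11, 0.12 and 0.14 without hypertensive replicates 1, 2 and 3 in turn, and with array weights it was 0.090 and 7 of the 14 were lower. PLAU, the urokinase gene, read 5619, 2852 and 4554 on the hypertensive arrays, against 2528, 2195 and 2731 on the normotensive arrays. Its groups did not overlap, with a log2 difference of 0.76 (SE 0.28, limma adjusted p = 0.273). The gelatinase MMP2 and the membrane metalloproteinase MMP14 were also higher without overlap, at 0.56 (SE 0.21) and 0.66 (SE 0.30). Groups not overlapping and higher made up 3 of the 14, where 9.28% of all genes were so. The integrin subunit ITGAV was at 0.50 (SE 0.33), the tissue plasminogen activator PLAT at 0.83 (SE 0.48) and thrombospondin THBS1 at 0.31 (SE 0.36), each with overlapping groups. PLAT was dominated by 24557 on hypertensive replicate 1, against 5726 and 7627 on the other hypertensive arrays. The matrix protein THBS2 was at -0.40 (SE 0.27). The latent TGF-beta binding proteins LTBP1 to LTBP4 were not analysed here.

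Receptors showed no common direction, with 4 of 9 measured higher and 5 lower and a median log2 difference of -0.013. TGFBR1, the type I receptor of the 3 ligands, read 1961, 4243 and 4850 on the hypertensive arrays, against 4697, 3700 and 6330 on the normotensive arrays. Only hypertensive replicate 1 lay outside the normotensive range, and the log2 difference was -0.48 (SE 0.37, limma adjusted p = 0.489), with a further TGFBR1 probe set of opposite sign. TGFBR3, the co-receptor of TGFB2, was at -0.013 (SE 0.58), and the co-receptor ENG at -0.46 (SE 0.39). The activin receptor ACVR1B was higher without overlap, at 1226, 1716 and 875 on the hypertensive arrays, against 771, 744 and 622 on the normotensive arrays (log2 0.79, SE 0.31, limma adjusted p = 0.280). BAMBI, a decoy receptor that blocks signalling, was lower without overlap, at -0.43 (SE 0.23), again with a further probe set of opposite sign. ACVR2A, BMPR1A, BMPR1B and ACVR1 were at 0.72 (SE 0.46), 0.11 (SE 0.24), 0.011 (SE 0.40) and -0.022 (SE 0.18), a further ACVR1 probe set having the opposite sign. TGFBR2 was not analysed here.

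Of the SMADs and their regulators, 6 of 7 measured had higher means, with a median log2 difference of 0.37, and 0 passed. Without hypertensive replicate 1 the median was 0.18 and 2 of the 7 were lower, as many as with array weights. SMAD3, which carries the TGF-beta signal, was at 0.46 (SE 0.37) and its partner SMAD4 at 0.39 (SE 0.25), both with overlapping groups. SMAD1, which serves bone morphogenetic proteins, was higher without overlap at 0.37 (SE 0.25). The corepressor TGIF1 and the receptor-associated inhibitor STRAP were at 0.53 (SE 0.28) and 0.26 (SE 0.23), and the antiproliferative gene TOB1 at 0.097 (SE 0.27). PMEPA1, a membrane protein that TGF-beta induces and that sequesters SMADs, was the lower gene. It read 1080, 2310 and 2510 on the hypertensive arrays, against 3898, 3040 and 3747 on the normotensive arrays. The groups did not overlap, its 2 further probe sets had the same sign, and the log2 difference was -0.94 (SE 0.34, limma adjusted p = 0.270). SMAD2, SMAD6 and SMAD7 were not analysed here.

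**Figure D4:**
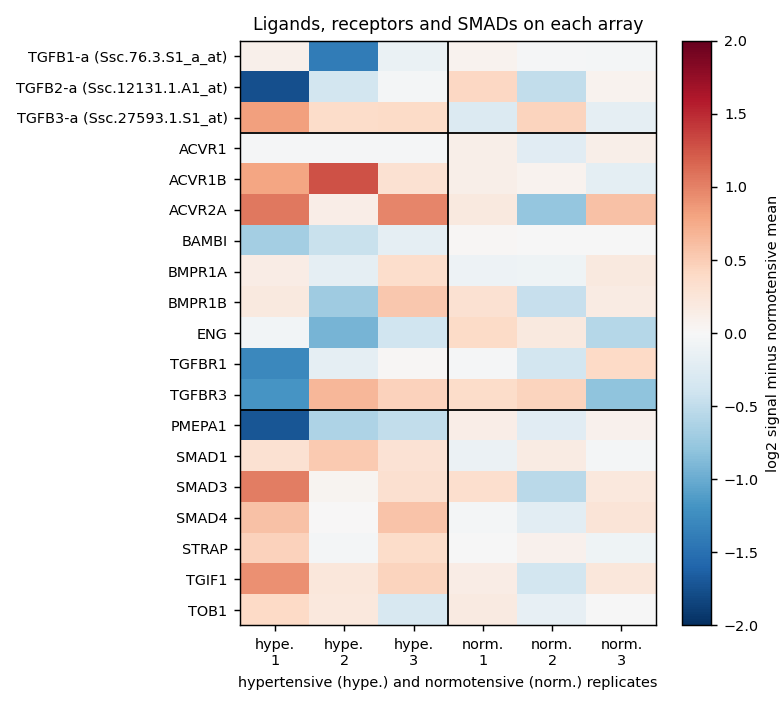
Log2 signal minus the normotensive mean (colour, red higher and blue lower) on each array, hypertensive replicates left and normotensive replicates right, for the brightest probe set of each ligand, receptors and SMADs with their regulators. Hypertensive replicate 1 is the low array for TGFB2, TGFBR1, TGFBR3 and PMEPA1, and hypertensive replicate 2 for TGFB1.

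Genes known to be induced by TGF-beta had lower means in 14 of 16 measured, with a median log2 difference of -0.49, where 55.0% of all genes were lower. This list, like the others, was chosen with earlier results of these data known, so the comparison with all genes carries no test. Without normotensive replicate 1 the median was -0.31 and 12 were lower. The groups did not overlap in 4, all lower, where 12.6% of all genes were so. TPM1, a tropomyosin of the contractile apparatus, read 669, 1078 and 1145 on the hypertensive arrays, against 2397, 3367 and 2263 on the normotensive arrays (log2 -1.49, SE 0.30, limma adjusted p = 0.195). Of its 2 further probe sets, 1 had the opposite sign. COL5A1, a fibril-forming collagen chain, was at -1.23 (SE 0.35), the metalloproteinase inhibitor TIMP3 at -1.26 (SE 0.39) and the matricellular protein POSTN at -0.53 (SE 0.18). ACTA2, the smooth muscle actin that marks myofibroblasts, read 2217, 267 and 3845 on the hypertensive arrays, against 2211, 2801 and 1840 on the normotensive arrays. Its hypertensive values lay above, below and within the normotensive range, so its log2 difference of -0.77 had an SE of 0.85. The genes with higher means, 2 of 16, were the proteoglycan VCAN at 0.65 (SE 0.25; 1 of its 2 further probe sets was of opposite sign) and the cartilage matrix protein COMP at 0.96 (SE 0.46), both with overlapping groups. CCN2, TGFBI and COL1A1 were not analysed here. Some of these genes also stand in the interstitial and myofibroblast marker lists. All 3 measured myofibroblast or smooth muscle markers had lower means, and the 6 named summed to 4559 to 8310 on the hypertensive arrays, against 6819 to 9740 on the normotensive arrays; the part of cell makeup in the target values was not tested.

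Proteins that bind the ligands outside the cell held the largest differences among the 55 genes, ASPN and FST, and 4 of 5 measured were lower. ASPN (asporin), a small proteoglycan that binds TGFB1, read 576, 1120 and 1769 on the hypertensive arrays, against 4355, 5631 and 5162 on the normotensive arrays. Its groups were far apart, with a log2 difference of -2.26 (SE 0.39, limma adjusted p = 0.164). Decorin (DCN), a relative that also binds TGF-beta, was at -0.26 (SE 0.17). FSTL3, which binds activins, was lower without overlap at -1.19 (SE 0.34), and FST (follistatin), which binds activins too, was at 1.76 (SE 0.61) with overlapping groups. Without hypertensive replicate 2, in the fit that called 26.0% of all genes, 3 of the 5 passed by limma. FST was then at 5.33 times the normotensive signal (adjusted p = 0.00996), ASPN at 0.201 times (adjusted p = 0.0101) and FSTL3 at 0.430 times (adjusted p = 0.0418).

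Other ligands of the superfamily were largely dim, with 5 of 10 named genes below the filter level on every array and 4 measured. BMP7 read 81.2, 104 and 50.5 on the hypertensive arrays, against 37.8, 39.6 and 28.6 on the normotensive arrays. No normotensive array reached the filter level, so BMP7 was kept through its hypertensive values. Set against that level, the hypertensive geometric mean was 1.55 times as high, with hypertensive replicate 3 only just above the level. The limma adjusted p of 0.269 belongs to the full log2 difference of 1.10, which rests on normotensive readings below that level. BMP7 is 1 of the 14 listed genes without overlap and 1 of the 13 with an unadjusted p under 0.05. INHBA, which forms activin A, and BMP4 were at -0.025 (SE 0.27) and -0.024 (SE 0.46), and GDF9, best known from oocytes, was at -0.74 (SE 0.45).

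**Figure D5:**
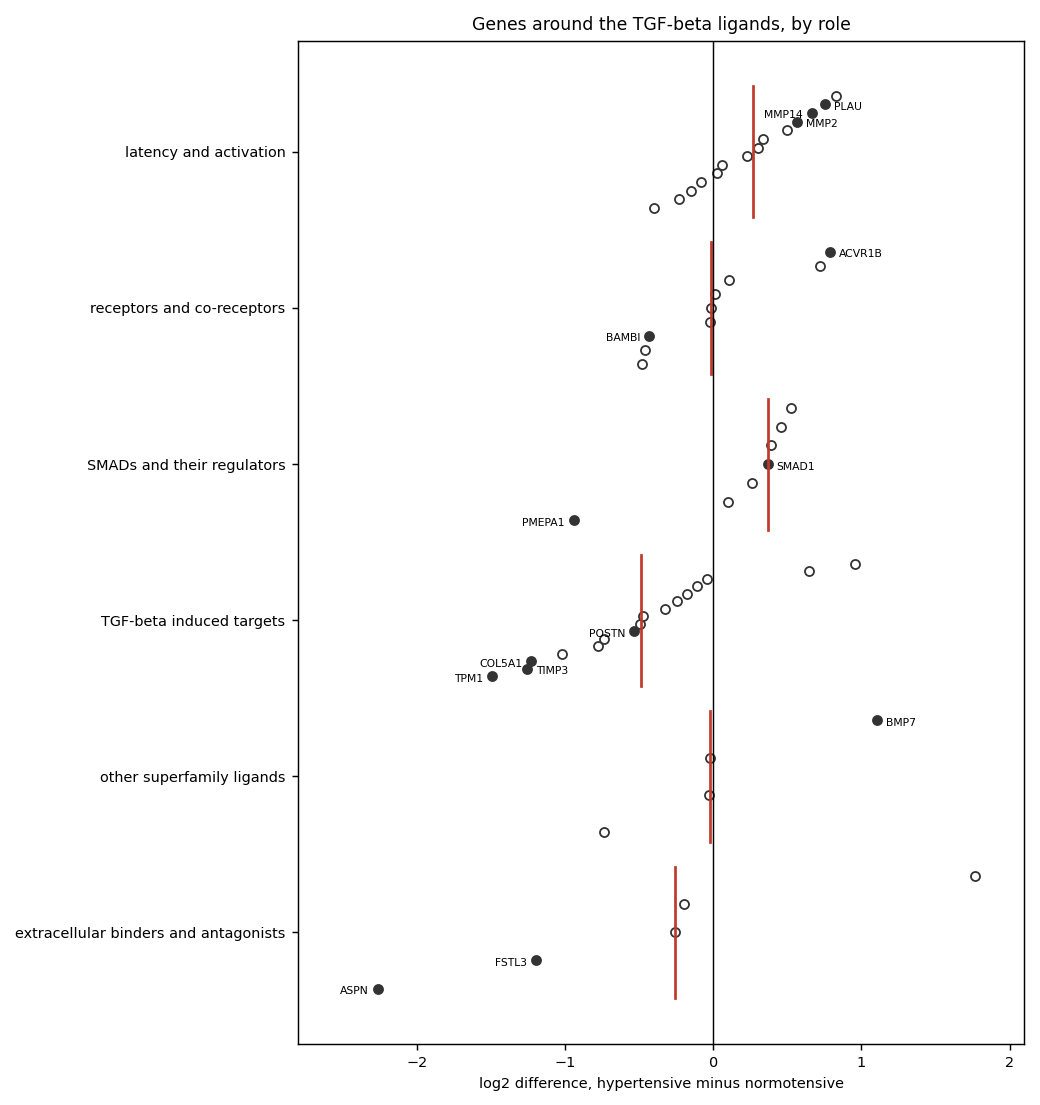
Log2 difference, hypertensive minus normotensive, of each measured gene in the 6 lists (1 point per gene, brightest probe set), with red bars for list medians; filled, named points are genes whose groups did not overlap. The median is -0.49 for TGF-beta induced targets and 0.37 for SMADs and their regulators, and 0 of the 55 genes passed.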

How the data were processed

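The deposited intensity of each probe set is a linear MAS5 signal made by the authors with GCOS, per the submitters' processing notes, which name no version. Per the labels' protocols, each array took 10 µg of cRNA, made from 70 ng of RNA in repeated rounds of transcription. The 2% trimmed mean was 500.11 to 500.131 on the 6 arrays, so a shift of most transcripts would not be seen. The 124 controls were dropped, and of the rest 10069 carried 1 symbol, 198 carried more and 13732 carried no symbol.

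Signals were taken to log2 with no pseudocount, filtered at the 40th percentile of mean log2 signal (14399 probe sets, 5271 genes) and compared with limma 3.58.1 in R 4.3.3 (eBayes with an intensity trend, 2-sided, Benjamini-Hochberg), tested on simulated data. Ratios between probe sets were compared by exact permutation (scipy 1.17.1). Precision is limited by having 3 arrays per group. The ligands and lists were chosen with earlier results of these data known. Named genes were all ligand probe sets, the measured receptors and SMADs, up to 6 genes of smallest p in each other list, a set of fixed pathway genes, and 3 genes nearest to each ligand; IDs and symbols were those of the platform annotation. VIM, COL1A2, S100A4, VWF, KDR, TIE1, ERG, SELP, CDH5, SELE, CD163, AIF1, C1QA, TYROBP, PTPRC, CD14, CORO1A, PPBP, HBB and GP9 were chosen from the marker lists after their values were seen. Repeat fits left out each array, weighted the arrays, blocked on replicate number, changed the filter or the variance model, added 16 or 64 to the signals, normalized by quantiles or medians, and used other probe sets.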

Additional observations from a re-analysis of the deposited data

How the results depend on the processing

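Over 495 comparisons of a result with an alternative, 445 kept direction and call, or a count within 1.5 times. The numbers in the titles were not taken to pair the arrays, which does not show that the arrays were unpaired. Correlations of deviations between same-numbered arrays were 0.059, 0.072 and 0.226 (not all over 0.1). Each array correlated best with its own number, a hint from the data and not from the design. With the replicate block, adjusted p was 0.347 for the bright TGFB3 probe set and 0 ligand probe sets passed, as without it. With array weights 1 ligand probe set passed (TGFB3-a, 0.60), TGFB3-b was at -0.72 and TGFB2-d of TGFB2 was at 0.026. That fit called 5639 of all probe sets and 40.7% of all genes. Passing genes were 3 of 14 in latency and activation, 2 of 7 SMADs and regulators and 9 of 16 targets. They were 2 of 4 among other ligands and 3 of 5 among binders. With the 60th percentile filter 2 ligand probe sets were left, and 1 was lower. Leaving out each array gave 0 to 3505 passing probe sets (1 without normotensive replicate 2, 3505 without hypertensive replicate 2). It gave 0 to 5 targets, 0 to 3 binders, 0 to 2 latency genes and 0 to 1 other ligands. The highest of these counts came without hypertensive replicate 2, in a fit that called 26.0% of all genes. Over the fits that left out an array, log2 differences ran from -0.34 to 0.065 for TGFB1-b and -1.18 to 0.20 for TGFB2-d. The TGFB2 to TGFB1 difference ran from -0.89 to 0.56. For pairs of probe sets the range was -0.71 to 0.33 for TGFB1. For TGFB2 it was -0.25 to 0.030 (TGFB2-a minus TGFB2-b), -0.50 to 0.36 (minus TGFB2-c), -0.55 to 0.31 (minus TGFB2-d), -0.46 to 0.33 (TGFB2-b minus TGFB2-c), -0.49 to 0.33 (minus TGFB2-d) and -0.76 to 0.78 (TGFB2-c minus TGFB2-d). The third of these was 0.040 with quantile normalization; the last pair was at -0.022 and -0.067 with pseudocounts of 16 and 64, and the one before it at -0.080 and -0.11. The cause of these changes was not tested. Signals near the filter level limit most: 3 of the 4 TGFB2 probe sets fell below it on 1 array each, and TGFB2-a and TGFB3-a were the ligand probe sets left by the 60th percentile filter.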
